A study of Mus musculus with 6 samples.

Results

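The genes described here are 10 proteases that mast cells and basophils store in their granules, chosen by symbol: Mcpt1, Mcpt2, Mcpt4, Mcpt8, Cma1, Cpa3, Tpsab1, Tpsb2, Gzmb and Prss34. They are 10 of the 55487 genes in the deposited table, and all 10 were among the 18766 genes that passed a filter on low values (6-library mean of 3 or more) and were tested. In these cultures 2 of the 10 (20.0%) passed the test, Mcpt1 and Mcpt2, the chymases known from mucosal mast cells. Both were higher in cells carrying the mutated MLLT3. Of all tested genes 13.9% passed, so the share was near the background. The result for Mcpt1 was lost in 9 of 13 alternative settings, and that for Mcpt2 in 1. The other 8 did not pass the test, among them the most abundant members of the set, Cpa3, Cma1 and Tpsb2.

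RNA of mouse bone marrow cells selected as cKIT+ was sequenced as total RNA in 6 libraries, 3 per group. The WT group received a lentivirus that overexpresses wild type MLLT3, and the DM group a lentivirus with MLLT3 carrying the substitutions K63E and K67E. In both groups 4-hydroxytamoxifen (200 nM) was added to delete the endogenous Mllt3 gene, and the sorted cells were then kept in methylcellulose for 8 days with gentamycin, mFlt3L (10 ng/mL), and mIL-11, mIL-6, mIL-3, mGMCSF, mSCF, hEPO and hTPO (20 ng/mL each). The labels place all 6 libraries in batch 1. The mouse strain, age and sex, and the Cre driver, are not given in the sources used here, and nothing says whether replicates came from separate animals, so p-values measure the spread between these samples, which may be technical. MLLT3 is a subunit of transcription elongation complexes whose YEATS domain reads acylated histones, and the comparison asks what the substitutions in that domain change in these cells.

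Mast cells and basophils pack their granules with serine proteases and a carboxypeptidase, bound to the proteoglycan serglycin. Chymases cut after aromatic residues, tryptases after basic residues, and granzyme B after aspartate, and most of them are made as inactive precursors that the dipeptidyl peptidase cathepsin C (Ctsc) trims. In the mouse, Mcpt1 and Mcpt2 are typical of mucosal mast cells, Mcpt4, Cma1, Cpa3 and Tpsb2 of connective tissue mast cells, and Mcpt8 and Prss34 of basophils. Stem cell factor, the ligand of Kit, and IL-3 are growth factors of these lineages and were both in the medium.

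Expression is given as rlog, the regularized logarithm to base 2 of DESeq2. This transform scales for library size and shrinks low genes toward their mean, which understates their changes. Sequencing depth is unknown, because the table holds no counts. A change is the DM mean minus the WT mean, and a gene is called when limma gives a Benjamini-Hochberg adjusted p under 0.05 over all 18766 genes. In bulk samples fewer cells of a type and less RNA per cell cannot be told apart.

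Of the 10 proteases, 2 were called (20.0%), against 13.9% of all tested genes, so the share called was near the background. Both called members were higher in DM, where 9.2% of all tested genes were called higher. No member was called lower, against 4.71% of all tested genes. Of all called genes 66.1% were thus higher in DM, and 51.3% after quantile normalization. The groups did not overlap for the same 2 members, Mcpt1 and Mcpt2, against 35.8% of all tested genes. The median change of the 10 was 0.11, against 0.01 over all tested genes, and 7 had a higher and 3 a lower mean in DM. All 10 had 6-library means of at least 10.32, far above the filter. Among genes with a mean of at least 5, 22.4% were called and the median change was 0.06. Among tested protein-coding genes the share was 19.8% and the median change 0.03. The plot of rlog values by library shows the spread behind these counts.

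**Figure D1:**
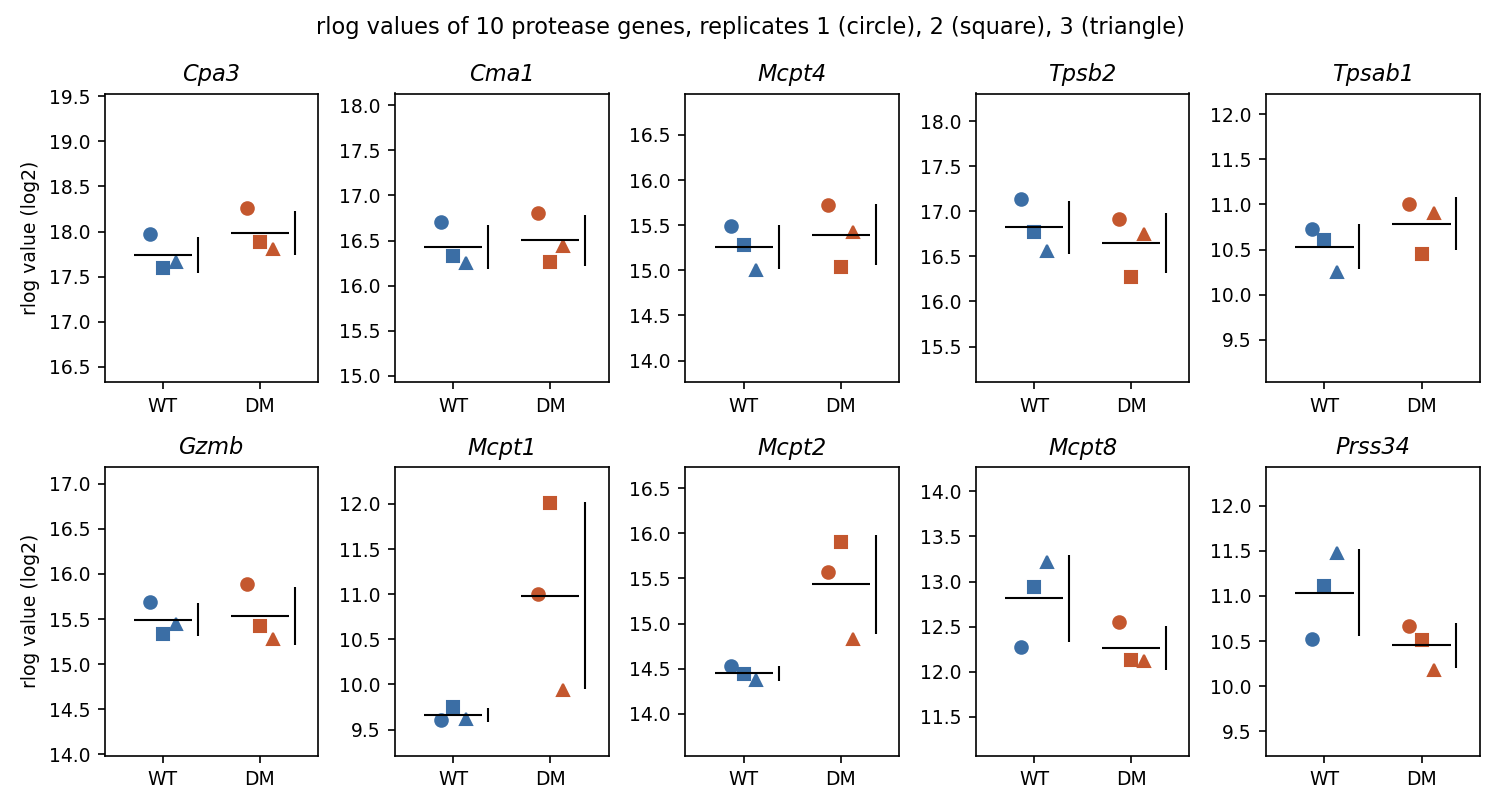
Each panel shows the rlog value (log2) of 1 protease gene in the WT (blue) and DM (orange) libraries, with replicates 1, 2 and 3 as circle, square and triangle, a horizontal line at the group mean and a vertical line of 1 SD to each side of it. All panels span the same height. The DM points of Mcpt1 and Mcpt2 lie above every WT point, and the groups overlap in the other 8 panels.

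Upstream windows are shown for Mcpt1 and Mcpt4, because Mcpt1 was called and Mcpt4, in the same gene cluster, was not, while their promoters are much alike; the difference between their changes was not tested. RefSeq windows were found for 7 of the 10 members; those of Mcpt2, Tpsab1 and Tpsb2 are not shown. Each window is the 250 bases before the annotated start, 5′ to 3′, on GRCm38.p6. Mcpt1 is on the plus strand (chr14:56017714-56017963) and Mcpt4 on the minus strand (chr14:56062311-56062560). Capitals mark the longest stretch that the 2 windows share letter for letter.
Mcpt1: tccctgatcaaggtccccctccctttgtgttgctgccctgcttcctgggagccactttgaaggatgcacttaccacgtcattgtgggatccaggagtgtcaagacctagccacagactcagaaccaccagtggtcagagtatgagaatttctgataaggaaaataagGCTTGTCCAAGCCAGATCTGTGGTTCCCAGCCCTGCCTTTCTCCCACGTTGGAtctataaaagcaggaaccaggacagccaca
Mcpt4: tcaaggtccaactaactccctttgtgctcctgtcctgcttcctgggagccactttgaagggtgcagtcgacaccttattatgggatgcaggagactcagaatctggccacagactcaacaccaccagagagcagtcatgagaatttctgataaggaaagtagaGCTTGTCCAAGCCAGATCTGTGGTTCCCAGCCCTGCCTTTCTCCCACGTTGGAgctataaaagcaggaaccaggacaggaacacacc

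The shared stretch was 53 bases long, and a global alignment paired 208 identical bases (83.2% of the window). In the other 20 pairs of the 7 windows the aligned identity was between 44.4% and 55.6%, and no shared stretch was longer than 10 bases. Motifs were searched on both strands, and no match of 1 motif overlapped a match of another. GATAA, the core bound by GATA factors, was found in 5 of the 7 windows, those of Mcpt1, Mcpt4, Cpa3, Cma1 and Prss34, and in 22.6% of all 32851 windows of this length. TGTGGT, the core bound by RUNX factors, was in 5 of 7 (14% of all windows), TATAAA in 3 of 7 (12.4%) and CATGTG, an E-box of the kind bound by MITF, in 1 of 7 (12.3%), the window of Prss34. In the similar windows of Mcpt1 and Mcpt4, GATAA began at -98 and -102, TGTGGT at -65 and -69, and TATAAA at -28 and -32. These are the same sites in the alignment, so the counts of windows include them in both and are not counts of independent matches. A match describes these letters and is not evidence of binding.

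The GATAA matches closest to the start were those of Prss34, a basophil member, and Cpa3, the most abundant member, and these are shown in the 100 bases before the start, with the match in capitals. Cpa3 is on the minus strand (chr3:20242182-20242281) and Prss34 on the plus strand (chr17:25298294-25298393).
Cpa3: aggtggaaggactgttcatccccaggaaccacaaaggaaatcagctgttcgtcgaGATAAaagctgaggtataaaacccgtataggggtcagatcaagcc
Prss34: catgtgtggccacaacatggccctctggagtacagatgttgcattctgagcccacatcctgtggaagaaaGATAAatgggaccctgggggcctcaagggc

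The 2 mucosal chymases rose in DM, where they also varied more between libraries than in WT. Mcpt1 (ENSMUSG00000022227.5; chromosome 14, 56017971 to 56020384, plus strand) had rlog values of 9.61, 9.75 and 9.62 in WT, against 11.00, 12.01 and 9.94 in DM, in the order of replicates 1, 2 and 3, as for all genes here. DM replicate 2 was the highest and DM replicate 3 stood just above the highest WT value. Group means were 9.66 ± 0.0757 for WT and 10.98 ± 1.03 for DM (SD, n = 3 each). The change of 1.32 (SE 0.386, limma adjusted p 0.0491) is 2.5-fold. The SD of Mcpt1 within DM was the largest of all 18766 tested genes, where the median was 0.0624. A large spread was shared by the set: each of the 10 members had an SD within DM above that of at least 97.4% of tested genes. The call of Mcpt1 was lost in 9 of 13 alternatives, with limma adjusted p from 0.00545 to 0.455. Without DM replicate 2 the change was 0.81 (limma adjusted p 0.0793), and the call was also lost without DM replicate 1 (0.0939) and without WT replicate 1 (0.118), 2 (0.0704) or 3 (0.0908).

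Mcpt2 (ENSMUSG00000022226.6; chromosome 14, 56042041 to 56044642, plus strand) had rlog values of 14.53, 14.44 and 14.37 in WT, against 15.57, 15.90 and 14.83 in DM. The DM libraries stood in the same order as for Mcpt1, with replicate 2 highest and replicate 3 lowest. The mean went from 14.44 ± 0.0793 to 15.43 ± 0.547 (SD, n = 3 each), which is 1.98-fold (0.99, SE 0.218, limma adjusted p 0.0163). Within DM the values spanned 1.07, against 0.16 within WT, and the SD within DM ranked 20 among all tested genes. The call held in 12 of 13 alternatives, among them all 6 fits that left out a library (0.75 to 1.29, limma adjusted p 0.00137 to 0.0468).

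The connective tissue chymases did not pass the test. Mcpt4 (ENSMUSG00000061068.7; chromosome 14, 56059629 to 56062313, minus strand) had rlog values of 15.49, 15.28 and 15.00 in WT, against 15.72, 15.04 and 15.43 in DM. Here DM replicate 2, the library with the highest Mcpt1 and Mcpt2, was the lowest of the DM libraries, and the groups overlapped. The change was 0.14 (95% interval -0.25 to 0.53, limma adjusted p 0.615). Cma1 (ENSMUSG00000022225.7; chromosome 14, 55941451 to 55944675, minus strand), an elastase-like chymase of connective tissue mast cells, had rlog values of 16.71, 16.33 and 16.25 in WT, against 16.81, 16.26 and 16.44 in DM. Replicate 1 was the highest library of both groups, and the change was 0.07 (95% interval -0.30 to 0.44, limma adjusted p 0.806). For Mcpt4 and Cma1 the sign of the change flipped after quantile normalization, to -0.08 and -0.15.

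The 2 chymases with similar promoters were also compared within each library. The rlog value of Mcpt1 minus that of Mcpt4 was -5.87, -5.53 and -5.37 in WT, against -4.72, -3.03 and -5.49 in DM. The groups overlapped, since DM replicate 3 lay among the WT libraries. For Mcpt2 minus Mcpt4 the differences were -0.96, -0.83 and -0.63 in WT, against -0.15, 0.86 and -0.60 in DM, with no overlap and DM replicate 3 next to WT. These differences are not scaled for gene length, the pairs were chosen after the values were seen, and no test was made of them.

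Carboxypeptidase A3 was the most abundant protease of the set. Cpa3 (ENSMUSG00000001865.2; chromosome 3, 20215620 to 20242181, minus strand) had rlog values of 17.97, 17.60 and 17.66 in WT, against 18.26, 17.88 and 17.81 in DM. The lowest DM value was above 2 of the 3 WT values, and the groups overlapped. The change was 0.24 (95% interval -0.12 to 0.60, limma adjusted p 0.34). It was -0.27 after quantile normalization and 0.10 without DM replicate 1. Scaled per kilobase of exon, Cpa3 ranked 5 in WT and 3 in DM among the 14030 tested protein-coding genes.

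Neither tryptase of the set was called. Tpsb2 (ENSMUSG00000033825.10; chromosome 17, 25366305 to 25369098, plus strand), the main tryptase of connective tissue mast cells, had rlog values of 17.14, 16.77 and 16.56 in WT, against 16.91, 16.27 and 16.75 in DM. The groups overlapped, with DM replicate 2 the lowest of the 6, and the change was -0.18 (95% interval -0.60 to 0.24, limma adjusted p 0.551). Tpsab1 (ENSMUSG00000024173.11; chromosome 17, 25343245 to 25345562, minus strand), its neighbour in the tryptase cluster, had rlog values of 10.73, 10.61 and 10.25 in WT, against 11.01, 10.45 and 10.90 in DM. DM replicates 1 and 3 were above all WT values and DM replicate 2 was not. The change was 0.26 (95% interval -0.08 to 0.61, limma adjusted p 0.288). Leaving out WT replicate 3 gave 0.12, DM replicate 1 gave 0.15 and DM replicate 2 gave 0.43.

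Granzyme B, best known from killer lymphocytes and also made by cultured mast cells, did not pass the test either. Gzmb (ENSMUSG00000015437.5; chromosome 14, 56258838 to 56262260, minus strand) had rlog values of 15.69, 15.33 and 15.45 in WT, against 15.89, 15.42 and 15.28 in DM. The groups overlapped, and the change was 0.04 (95% interval -0.31 to 0.40, limma adjusted p 0.88). It was -0.16 after quantile normalization. Of 9 markers of NK and T cells, 8 were under the filter in these libraries. Perforin (Prf1) lay between 2.40 and 2.59, Gzma between 0.83 and 0.87 and Cd3e between 2.65 and 2.87, and the marker that passed was Nkg7, which was called lower in DM.

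The basophil proteases were lower on average in DM, without a call. Mcpt8 (ENSMUSG00000022157.8; chromosome 14, 56082166 to 56085273, minus strand) had rlog values of 12.28, 12.94 and 13.22 in WT, against 12.55, 12.13 and 12.12 in DM. WT replicate 1 lay among the DM libraries, while WT replicates 2 and 3 were above all of them. Group means were 12.81 ± 0.486 for WT and 12.27 ± 0.246 for DM (SD, n = 3 each), and the change was -0.54 (SE 0.21, limma adjusted p 0.122). Prss34 (ENSMUSG00000056399.2; chromosome 17, 25298394 to 25300165, plus strand), a tryptase-like protease of basophils, had rlog values of 10.52, 11.11 and 11.48 in WT, against 10.67, 10.51 and 10.18 in DM. Again WT replicate 1 was the lowest WT library and overlapped DM. The change of Prss34 was -0.58 (SE 0.209, limma adjusted p 0.0986).

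Both values depended on single libraries. Without WT replicate 3 the change was -0.34 for Mcpt8 (limma adjusted p 0.294) and -0.36 for Prss34 (0.232). Without WT replicate 1 it was -0.81 for Mcpt8 and -0.84 for Prss34, both called (limma adjusted p 0.0174 for each). With all libraries in, neither is called, and the SDs within WT ranked 47 and 48 among all tested genes. Mcpt8 and Prss34 lie on different chromosomes, and the rlog difference between them (Prss34 minus Mcpt8) stayed between -1.94 and -1.62 in all 6 libraries. The heat map of differences from the 6-library mean shows this shared pattern.

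**Figure D2:**
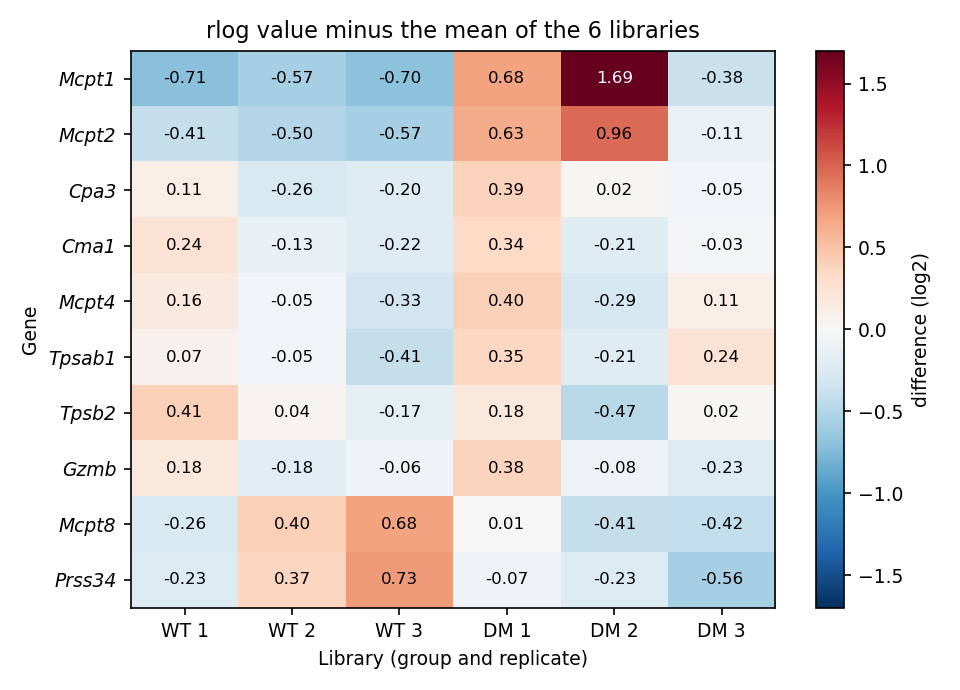
The heat map gives, for each protease gene (rows) and library (columns), the rlog value minus the mean of that gene over the 6 libraries, in log2 units, from blue (lower) to red (higher). Mcpt1 and Mcpt2 are lowest in the 3 WT libraries and highest in DM replicate 2 (1.69 and 0.96), while Mcpt8 and Prss34 are highest in WT replicate 3 (0.68 and 0.73).

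Likeness of pattern was measured as the mean absolute difference, over the 6 libraries, between 2 genes' rlog values after each was centred on its own mean, for the 4 members that ranged over at least 1. The tested gene nearest to Mcpt8 was Prss34, and the gene nearest to Prss34 was Mcpt8 (0.0884). The next nearest to Mcpt8 were Faah (0.136) and Asb2 (0.151), and to Prss34 Ermap (0.137) and Trgc1 (0.138). The gene nearest to Mcpt1 was Mcpt2 (0.257), followed by Cd200 (0.378) and Cyp26b1 (0.39). Nearest to Mcpt2 were Gm10252 (0.197), Cd200 (0.217) and Mamdc2 (0.221). Nearness was measured over both groups, so the direction of these genes' changes was set by the choice and is not a separate result. Cyp26b1, which degrades retinoic acid, changed by 1.13 (limma adjusted p 0.00902). Cd200, which encodes a surface ligand that restrains myeloid cells, changed by 0.86 (limma adjusted p 0.0163). Gm10252 changed by 0.69 (0.00921) and Mamdc2 by 0.72 (limma adjusted p 0.0412), whereas Faah (-0.35, 0.174), Asb2 (-0.44, 0.0568), Ermap (-0.41, 0.241) and Trgc1 (-0.52, 0.132) were not called. Cd200 lost its call without WT replicate 1 or DM replicate 2, and Mamdc2 without WT replicate 1, WT replicate 3 or DM replicate 2 (largest limma adjusted p 0.061 and 0.103).

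Levels of different genes can be compared only per length, so each mean was divided by the length of the gene's merged exons. On this scale (log2 per kilobase) the order in WT was Cpa3 at 17.14, Cma1 at 16.31, Tpsb2 at 16.15, Mcpt4 at 15.10, Gzmb at 14.96, Mcpt2 at 14.36, Mcpt8 at 12.81, Prss34 at 10.75, Mcpt1 at 9.64 and Tpsab1 at 9.46. Neighbours within the WT SD of both genes were Cma1 and Tpsb2, and Mcpt4 and Gzmb. Mcpt1 and Tpsab1 lay within the WT SD of Tpsab1 (0.248) but not that of Mcpt1 (0.0757). In DM Mcpt2 reached 15.35, next to Mcpt4 at 15.25, and Mcpt1 reached 10.96, above Prss34 at 10.17. Among the 14030 tested protein-coding genes, Cpa3, Cma1, Tpsb2, Mcpt4, Gzmb and Mcpt2 all ranked within the top 38 in WT and the top 29 in DM. Mcpt2 went from rank 38 to 26 and Mcpt1 from 1684 to 676, while Mcpt8 went from 156 to 251 and Prss34 from 724 to 1223. The 10 proteases made up between 4.01% and 5.37% of the summed linear per-kilobase values of these protein-coding genes in WT and between 4.19% and 5.75% in DM, with replicate 1 highest in both groups.

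Of the members, 6 lie in the chymase gene cluster on chromosome 14, and the changes within it ran in different directions. Between Mcpt1 and Mcpt2 lies Mcpt9, whose rlog mean was 3.11 and whose change was -0.01 (limma adjusted p 0.9). On the other side of Mcpt8 lies Ctsg (ENSMUSG00000040314.2; chromosome 14, 56099881 to 56102574), which encodes cathepsin G of neutrophil azurophil granules. Ctsg had rlog values of 14.44, 14.24 and 13.88 in WT, against 13.80, 13.23 and 13.64 in DM, with no overlap, a change of -0.63 (SE 0.165, limma adjusted p 0.032). Leaving out WT replicate 1 or 2, or DM replicate 2 or 3, ended its call (largest limma adjusted p 0.115). Cma2, next to Cma1, changed by 0.05 (0.772) and Gzmc, next to Gzmb, by -0.09 (0.273). Gzmd, Gzme, Gzmf, Gzmg and Gzmn were under the filter. Of the 10 tested genes of the cluster 3 were called (30.0%, against 13.9% of all tested genes), and without the members Ctsg was the 1 called of 4 tested.

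**Figure D3:**
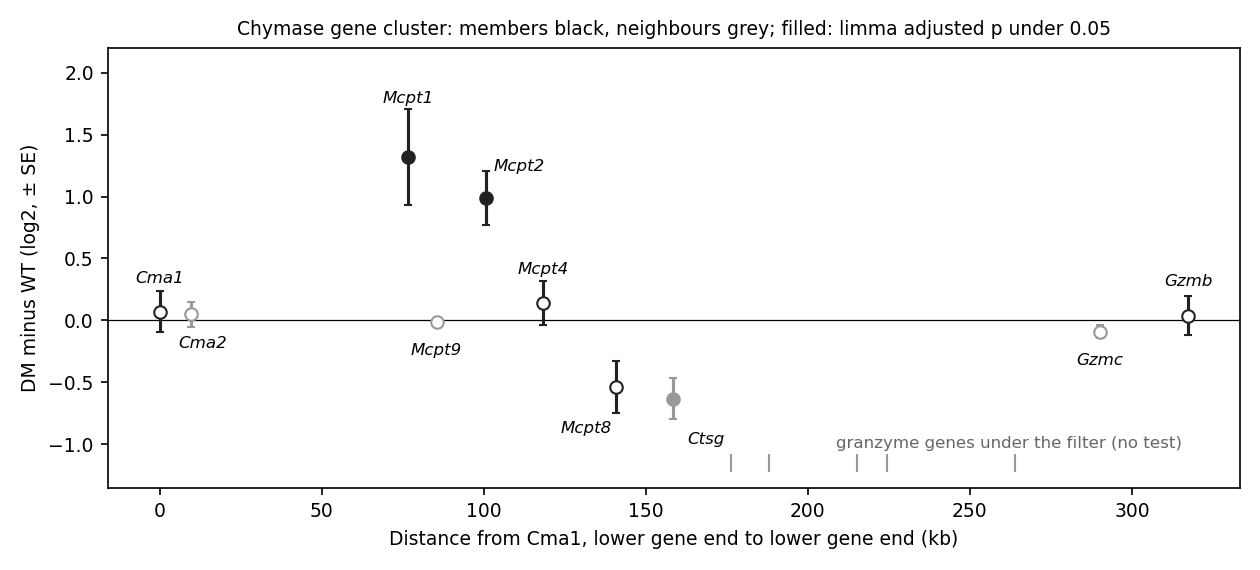
Points give the change (DM minus WT, log2, with bars of 1 SE) of the tested genes of the chymase cluster against the distance in kilobases from Cma1; black points are members and grey points neighbours, filled where the limma adjusted p is under 0.05, and ticks mark granzyme genes that were under the filter. Mcpt1 (1.32) and Mcpt2 (0.99) are the filled points above 0 and Ctsg (-0.63) the filled point below 0.

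Among the tryptase genes of chromosome 17, Tpsg1, a membrane-anchored tryptase gene next to Tpsb2, was the 1 gene of 6 tested that was called (16.7%, against 13.9% of all tested genes). Tpsg1 (ENSMUSG00000033200.16; chromosome 17, 25369273 to 25374442) had rlog values of 12.46, 12.13 and 12.29 in WT, against 13.02, 12.64 and 12.63 in DM. Every DM value was above every WT value, and the change was 0.47 (SE 0.121, limma adjusted p 0.0303). Leaving out WT replicate 2 or 3, or DM replicate 1 or 2, ended the call of Tpsg1 (largest limma adjusted p 0.0776), and so did quantile normalization. Prss28 and Prss30 had small changes of -0.04 and -0.08, neither called. Prss30 lies at -1326.3 kb from Prss34, and the other tested genes within 70.9 kb of it. Counts of cluster genes here include Prss30.

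**Figure D4:**
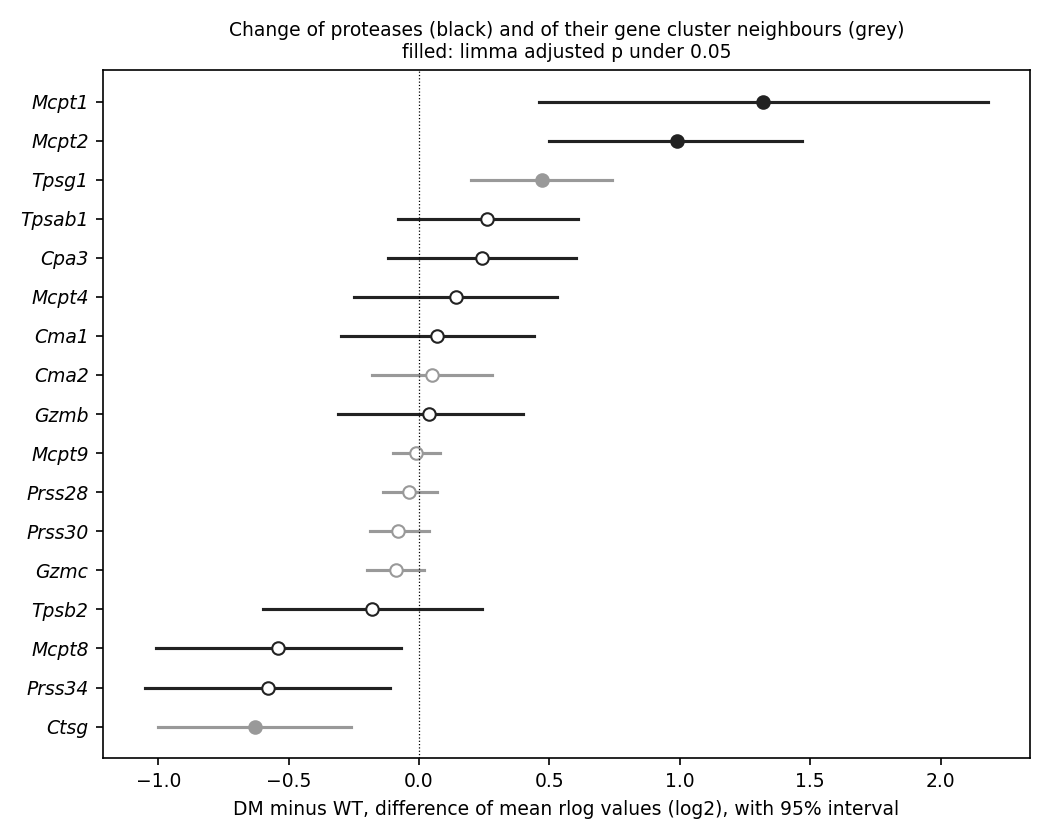
Points give the change (DM minus WT, difference of mean rlog values, log2) and lines the 95% interval. The 10 proteases are black and the other tested genes listed with their clusters grey, among them Prss30, which lies far from the tryptase cluster. Points are filled where the limma adjusted p is under 0.05. Intervals of Mcpt1 (0.46 to 2.18), Mcpt2 (0.50 to 1.47), Tpsg1, Mcpt8, Prss34 and Ctsg do not reach 0, and those of Mcpt8 (-1.01 to -0.07) and Prss34 (-1.05 to -0.11) are from genes that were not called after adjustment.

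Other genes of mast cells and basophils were read from a list of 37 receptors, signalling, enzyme and regulator genes, of which 35 were tested. Of these, 6 rose and 1 fell (20.0% called, against 13.9% of all tested genes), so the share was near the background. The median change was 0.12, against 0.01 over all tested genes. Over genes with a mean of at least 5 it was 0.06, and 22.4% of those were called. The libraries are bulk, and which cell type the changes came from was not tested. Of 7 monocyte and macrophage markers, 6 were called higher in DM and 1 lower. The receptors Kit, Fcer1a and Ms4a2 were not called. Kit changed by 0.20 (limma adjusted p 0.368), but the cells were selected as cKIT+, so Kit here does not mark mast cells alone. Fcer1a, the IgE-binding chain of the high-affinity IgE receptor, changed by 0.12 (limma adjusted p 0.581), and Ms4a2, its beta chain, by 0.08 (0.736). Mitf, a transcription factor that mast cells need and macrophages also express, had rlog values of 11.41, 11.49 and 11.33 in WT, against 12.00, 11.88 and 11.92 in DM, with no overlap, a change of 0.52 (limma adjusted p 0.00293). The others that rose were Slc6a4, the serotonin transporter (0.50, 0.0386), Hpgds, which makes prostaglandin D (0.47, 0.0113), Ltc4s, which makes leukotriene C (0.46, 0.00781), Cd63, a granule membrane protein (0.43, 0.0222), and Fcer1g, the signalling chain of Fc receptors (0.42, 0.0128). Hdc, which makes histamine, fell by 0.62 on the log2 scale (limma adjusted p 0.0457), with rlog values of 12.52, 12.66 and 13.09 in WT, against 12.42, 11.77 and 12.24 in DM. The calls of Mitf, Hpgds and Ltc4s held in all 6 fits that left out a library. Those of Hdc, Slc6a4, Cd63 and Fcer1g were each lost without DM replicate 2 (limma adjusted p 0.139, 0.0891, 0.0918 and 0.0632). WT replicate 1 also ended the calls of Slc6a4, Cd63 and Fcer1g when left out, WT replicate 2 those of Hdc and Slc6a4, WT replicate 3 those of Hdc and Cd63, DM replicate 1 that of Cd63 and DM replicate 3 that of Hdc (largest limma adjusted p 0.125). Quantile normalization ended the calls of Slc6a4 (0.0888) and Cd63 (0.082), centring on the median those of Slc6a4 (0.0672) and Hdc (0.0505), and leaving out the mean-variance trend that of Hdc (limma adjusted p 0.0587).

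Granule proteases depend on genes that activate, store or inhibit them. Of 9 such genes tested, 1 was called (11.1%, against 13.9% of all tested genes). It was Serpinb6a, an intracellular serpin, at 0.50 (limma adjusted p 0.0105). Its rlog values were 11.76, 11.82 and 11.48 in WT, against 12.20, 12.26 and 12.08 in DM. The call held in all 6 fits that left out a library. Ctsc, the activator, had a change of 0.28 (limma adjusted p 0.0634), Srgn, serglycin, -0.16 (0.407) and Serpinb9, an inhibitor of granzyme B, 0.31 (0.0605). The median change of the 9 genes was 0.22.

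Markers of other cell types moved with the groups. All 10 neutrophil markers, Ctsg among them, were called lower in DM, with a log2 summed level of 18.44 to 18.89 in WT and 16.83 to 17.74 in DM. The median change of these 10 was -1.45, and that of Ctsg was -0.63. Of the monocyte and macrophage markers, 6 of 7 were called higher and Ly6c2 lower (17.98 to 18.63 in WT, 18.89 to 19.30 in DM). Of 8 eosinophil markers 3 were called, all 3 lower (15.17 to 15.28 in WT, 13.97 to 14.43 in DM). The lists of mast cell and basophil markers hold members themselves (Cma1, Cpa3 and Tpsb2, and Mcpt8 and Prss34), so they were read without them. Of the 4 other mast cell markers tested (Kit, Ms4a2, Fcer1a and Gata2) limma called none (0 at an unadjusted p under 0.05), and with Mrgprb2, which was under the filter between 0.67 and 0.71, their summed level was 16.12 to 16.41 in WT and 16.13 to 16.62 in DM. Of the 4 other basophil markers (Cd200r3, Fcer1a, Itga2 and Il3ra) limma also called none (0 at an unadjusted p under 0.05), with a summed level of 14.55 to 14.87 in WT and 14.65 to 15.08 in DM. Most of this sum is Fcer1a, whose WT mean was 14.32, against 12.25 for Cd200r3, 9.83 for Il3ra and 7.77 for Itga2. Fcer1a is also among the mast cell markers, so the sum is not a separate measure of basophils. The part of these cell types in the results for the proteases was not tested.

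**Figure D5:**
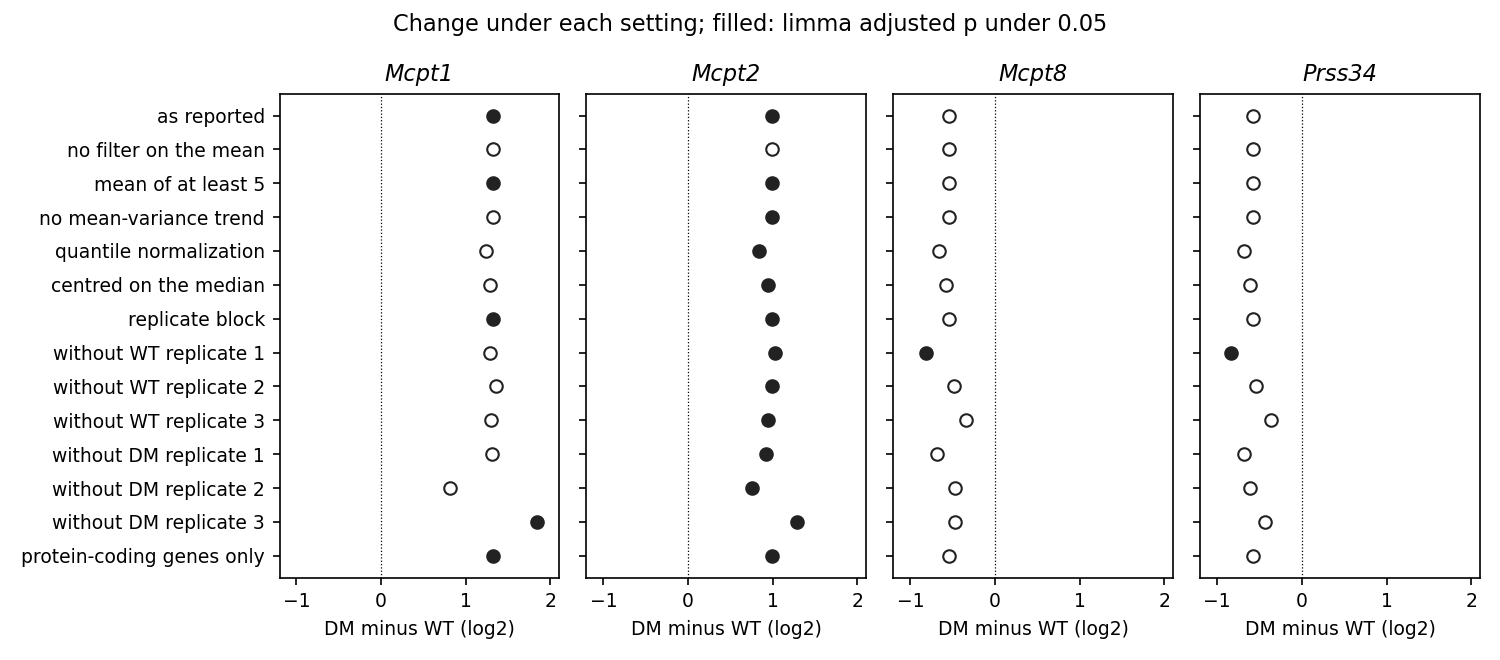
Points give the change (DM minus WT, log2) of Mcpt1, Mcpt2, Mcpt8 and Prss34 as reported and under each of the 13 alternatives, filled where the limma adjusted p is under 0.05. Mcpt2 is filled in every row but that without a filter, Mcpt1 in 4 of the 13 alternatives, and Mcpt8 and Prss34 only without WT replicate 1.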

How the data were processed

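The submitters' processing notes name cutadapt 2.6, STAR 2.7.3, DESeq2 1.30.0 and the build mm10, without roles. The authors deposited values on the log2 scale, read as rlog values from the table's name and its values (-1.97 to 21.88). The counting tool, the use of strand and the annotation are not given in the sources used here. The 142699 lines held each gene once or more with identical values and were merged to 55487 genes, of which 54435 (98.1%) matched GENCODE M21 on GRCm38, the build called mm10, by versioned identifier. This gave coordinates and exon lengths.

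DM was compared with WT by limma 3.58.1 (mean-variance trend, no covariates) in R 4.3.3 over genes with a mean of at least 3, with Benjamini-Hochberg adjustment and a threshold of 0.05. Upstream sequences are from RefSeq (GRCm38.p6), aligned with Biopython 1.88. Of the members, 8 shared no 50-base stretch of transcript with another gene in GENCODE M21; Mcpt4 shared 5.5% of its stretches with Cma2 and Mcpt9, and Cma1 5.4% with Gm48934. MicroRNA genes lie within members, Mir6949 in Mcpt8 and Mir7007 in Cpa3.

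Members and lists were chosen with earlier results of these data known. Named are every member, tested genes of the gene clusters, Kit, Fcer1a and Ms4a2, called genes of each list (up to 6 in each direction) and the 3 genes nearest in pattern; others were named after their values were seen. The 13 alternatives were no filter, a mean of at least 5, no trend, quantile normalization, centring on the median, a replicate block, protein-coding genes only and each library left out. Erythroid, megakaryocyte and plasmacytoid dendritic cell markers were also read: 0 of 3 (limma; 0 at an unadjusted p under 0.05), 2 of 4 and 2 of 2 tested were called, the called ones all higher in DM.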

Additional observations from a re-analysis of the deposited data

How the results depend on the processing

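Without the filter on the mean, limma called 138 of 55487 genes and none of the 10 proteases (1 had an unadjusted p under 0.05), and 0 genes of the mast cell and basophil list (8), of the protease partners (5) and of the gene clusters (3). The proteases called numbered 1 without the mean-variance trend, 1 after quantile normalization and 1 after centring on the median, Mcpt2 in each case, and 1 to 3 when a library was left out (1 without WT replicate 2, WT replicate 3, DM replicate 1 or DM replicate 2, Mcpt2 each time). All genes called ranged from 1119 (without DM replicate 2) to 3475 (without WT replicate 2), with 1185 without WT replicate 1 and 1537 without DM replicate 3. Those of the mast cell and basophil list ranged from 3 (without DM replicate 2; 4 without WT replicate 1) to 6, of the partners from 1 to 2 (without WT replicate 2 or DM replicate 3) and of the clusters from 1 (without WT replicate 2 or DM replicate 2; 2 without WT replicate 3 or DM replicate 1) to 4. The mast cell and basophil list had 5 calls after quantile normalization and 5 after centring, against 7. Partners called numbered 4 with a mean of at least 5, 2 without the trend and 2 among protein-coding genes, and cluster genes 2 after quantile normalization.

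Over 130 results for the proteases under alternatives, 107 kept their sign and side of the threshold, 10 lost a call, 3 gained one and 10 changed sign, all of the last in genes that were not called. After quantile normalization the sign changed for Mcpt4 (-0.08), Cma1 (-0.15), Cpa3 (-0.27), Gzmb (-0.16), Mcpt9 (0.04), Prss28 (0.03), Fcer1a (-0.02) and Ms4a2 (-0.08). With a library left out the changes ran from -0.02 to 0.32 for Mcpt4, -0.08 to 0.21 for Cma1, -0.31 to 0.01 for Tpsb2, -0.14 to 0.17 for Gzmb, -0.03 to 0.01 for Mcpt9, -0.05 to 0.11 for Cma2, -0.06 to 0 for Prss28, -0.03 to 0.23 for Fcer1a and -0.06 to 0.19 for Ms4a2. Without a change of sign they ran from 0.10 to 0.35 for Cpa3, 0.12 to 0.43 for Tpsab1 and 0.05 (without DM replicate 1) to 0.35 (without DM replicate 2) for Kit, which was 0.06 after quantile normalization. The cause was not tested.

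The labels give both groups replicate numbers 1 to 3. Deviations of same-numbered libraries correlated at 0.491, 0.116 and 0.041 across tested genes, and WT replicate 3 correlated best with DM replicate 2 (0.124), so the numbers were not taken as pairs. With the replicate block limma called 3742 genes, 11 of the mast cell and basophil list and 4 partners, and among the proteases Cpa3 (0.24, adjusted p 0.0287) besides Mcpt1 and Mcpt2. Depth is unknown, and 3 libraries per group limit the precision.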

Other observations

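Values of proteases of the set were compared within libraries, for 11 pairs chosen after the values were seen and with no test. The groups overlapped for 8 pairs and not for 3, which were Mcpt2 minus Mcpt4, Tpsab1 minus Tpsb2 and Gzmb minus Cpa3. Of single tested genes, 35.8% had groups that did not overlap, and no such share was computed over all pairs of genes. Tpsab1 minus Tpsb2 was -6.42, -6.17 and -6.32 in WT and -5.90, -5.82 and -5.85 in DM on the rlog scale, so the 2 neighbouring tryptase genes stood closer in every DM library than in any WT library, although neither was called by itself. Gzmb minus Cpa3 was -2.28, -2.27 and -2.21 in WT and -2.37, -2.45 and -2.53 in DM, also with no overlap. Mcpt8 minus Cpa3 was -5.70 in WT replicate 1 and -4.66 and -4.44 in WT replicates 2 and 3, against -5.70, -5.75 and -5.69 in DM. On this scale WT replicate 1 stood at the DM level and the DM libraries spanned a narrow range.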
